A study of Ovis aries and Capra hircus and Bos taurus with 26 samples.

Results

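The intervals described here were wide H3K27ac intervals seen in the liver of a single animal. An interval was taken when it lay on an autosome of sheep or goats, was at least 500 bp wide, and overlapped no H3K27ac interval of the other 2 animals of its species by even 1 bp. The intervals were chosen by their measured width and by their absence from the H3K27ac lists of the other animals, so these values are given as a description and carry no test. Of 116456 wide autosomal H3K27ac intervals in 6 lists, 3197 were seen in a single animal (1774 in sheep and 1423 in goats), 8472 in exactly 2 animals and 104787 in all 3. They are called single-animal and common intervals below, the latter being the wide intervals found in all 3 animals. The 17 lists of the whole series held 616400 intervals.

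The study profiled histone marks by chromatin immunoprecipitation followed by sequencing (ChIP-seq) in the liver of ruminants, to follow regulatory elements through ruminant evolution. Used here were 12 lists of called intervals, for H3K27ac and H3K4me3 in livers A, B and C of sheep and livers A, B and C of goats. The sheep were healthy adult Texel animals of 2 to 3 years and the goats healthy adult Yunnan black goats of 2 to 3 years, none of them treated, and both marks of an animal came from the same liver. A liver sample is a mixture of cell types, and more cells that carry a mark cannot be told apart from more mark per cell. The labelled tissue could not be checked against marker genes, since no annotation of these builds was used here. Coordinates are taken as those of Oar_rambouillet_v1.0 in sheep and ARS1 in goats, from the methods and the sequence names of the lists, whereas the submitters' processing notes name the cattle build ARS-UCD1.2 for every sample. The autosomal H3K27ac lists held 35693 to 48735 intervals and covered 19.8 to 28.3 Mb, and the autosomal H3K4me3 lists held 23483 to 29469 intervals and covered 20.1 to 25.2 Mb. According to the methods, paired-end libraries were subsampled to a common depth. The lists carry no read numbers, so that depth was not checked here, and a missing interval says only that the peak caller did not call one.

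H3K27ac, the acetylation of lysine 27 of histone H3, is laid down by the acetyltransferases p300 and CBP and marks active promoters and enhancers. H3K4me3, the trimethylation of lysine 4, sits at the promoters of active and poised genes. A region with H3K27ac and no H3K4me3 is therefore commonly read as an enhancer, and one with both marks as a promoter. Enhancers are known to differ more between tissues and between species than promoters do.

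The single-animal intervals numbered 769 in sheep A, 257 in sheep B, 748 in sheep C, 258 in goat A, 683 in goat B and 482 in goat C. They made up 4.13% of the wide intervals in sheep A, 1.62% in sheep B and 3.92% in sheep C. In goats they made up 1.33% in goat A, 2.99% in goat B and 2.33% in goat C. Sheep B and goat A had few of them, and the ranges of the species overlapped. The mean share was 3.23% ± 1.39 for the sheep and 2.22% ± 0.83 for the goats (SD over 3 animals each), given with no test. Sheep B had the fewest autosomal H3K27ac intervals of the sheep and goat A the fewest of the goats (35693 and 40457). The part of list length in the counts was not tested.

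**Figure D1:**
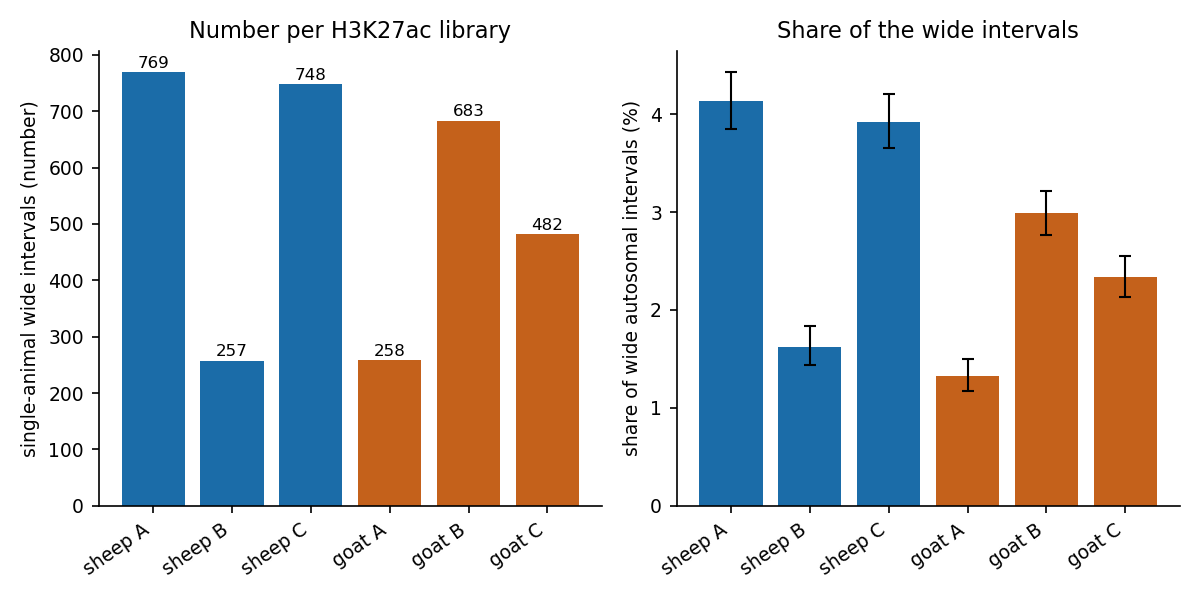
Single-animal intervals in each of the 6 H3K27ac lists, as a number and as a percentage of the wide autosomal intervals of the list, with exact 95% intervals as error bars. Sheep B and goat A stand lowest with 257 and 258, and sheep A is highest with 769.

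Most single-animal intervals were only just wide enough to be taken. Their median width lay between 571.5 and 584.5 bp over the 6 animals, against 754 to 822 bp for the common intervals, and the widest of each animal measured 1166 to 1498 bp. Among the intervals from 500 to just under 600 bp, 3.66 to 10.4% were seen in a single animal, and among those of 1000 bp or more only 0.028 to 0.237% were. Their median fold enrichment over the background of the peak caller was 3.40 to 3.63, against 4.81 to 5.28 for the common intervals. In the highest 25% by fold enrichment there were 9, 4 and 12 single-animal intervals in sheep A, B and C and 3, 3 and 0 in goats A, B and C. Between 24.4 and 34.6% of them had more than 1 summit, against 48.2 to 54.4% of the common intervals.

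At the width threshold, 276 of the 3197 intervals measured less than 510 bp, while 297 others of at least 490 bp also lacked an overlap in both other animals but were too narrow. At the overlap threshold, 105 of the 3197 lay within 100 bp of an H3K27ac interval of another animal, while 68 wide intervals were left out because of an overlap of 1 to 50 bp. Many others lay far from any interval of the other animals. In each animal 28.9 to 40.1% of the single-animal intervals came within 1 kb of one, and 51.4 to 61.8% were at least 5 kb away. In all, 333 were at least 50 kb away, and the farthest of each animal was 421 to 2317 kb away.

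**Figure D2:**
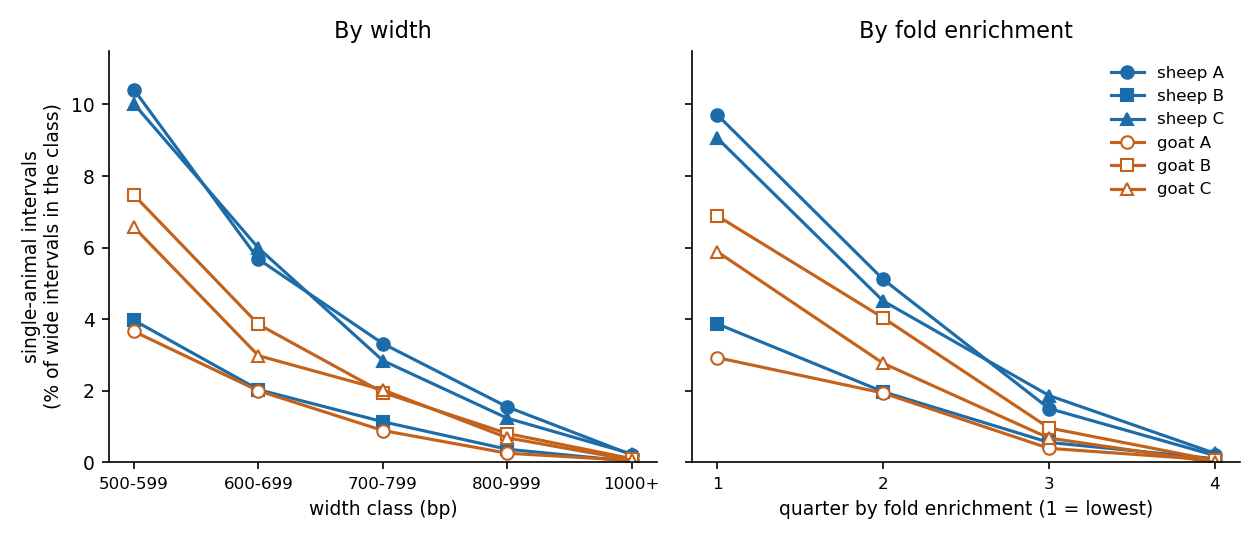
Percentage of wide H3K27ac intervals seen in a single animal by width class in bp and by class of fold enrichment, each class holding 25% of the intervals, with 1 line per animal. The percentage falls with width and with fold enrichment in each of the 6 animals, from 3.66 to 10.4% under 600 bp to at most 0.237% at 1000 bp and above.

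The first comparison asked whether single-animal intervals carried the promoter mark of their own animal as often as common intervals did. In sheep A, 208 of the 769 single-animal intervals (27.05%, exact 95% interval 23.9 to 30.3) overlapped an H3K4me3 interval of the same liver, against 71.8% of all wide intervals of that animal. In sheep B the number was 64 of 257 (24.9%, 19.7 to 30.7), against 79.4% of all wide intervals. In sheep C it was 192 of 748 (25.7%, 22.6 to 29.0), against 74.9%. The 3 sheep were thus close to each other and far below their own background.

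In goat A, 62 of the 258 single-animal intervals (24.0%, exact 95% interval 18.9 to 29.7) overlapped H3K4me3 of the same liver, against 72.7% of all wide intervals. In goat B it was 105 of 683 (15.4%, 12.7 to 18.3), against 69.3%. In goat C it was 135 of 482 (28.0%, 24.0 to 32.2), against 73.7%. Goat B stood below the other 5 animals, and its interval did not reach theirs. These intervals cover counting error only, since neighbouring intervals of 1 library are not independent.

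The common intervals overlapped H3K4me3 in 78.0, 82.9 and 81.2% of cases in sheep A, B and C and in 75.6, 75.1 and 77.8% in goats A, B and C. The single-animal intervals were lower by 54.3 ± 4.09 percentage points (SD, n = 6), from −59.7 to −49.8, in 6 of 6 animals. An exact two-sided sign-flip permutation test over the 6 animals gave p = 0.03125, the smallest that 6 animals allow, and 0.0375 after Benjamini-Hochberg adjustment over the 6 tests of differences within animals or between lists. Wide intervals found in exactly 2 animals lay between the other classes in each animal, with 31.8, 38.7 and 37.5% in sheep A, B and C and 29.2, 26.3 and 31.2% in goats A, B and C. The share among single-animal intervals was 25.9% ± 1.09 for the sheep and 22.5% ± 6.46 for the goats (SD over 3 animals each), which an exact two-sided permutation test outside that adjustment did not separate (p = 0.6, smallest possible 0.1).

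**Figure D3:**
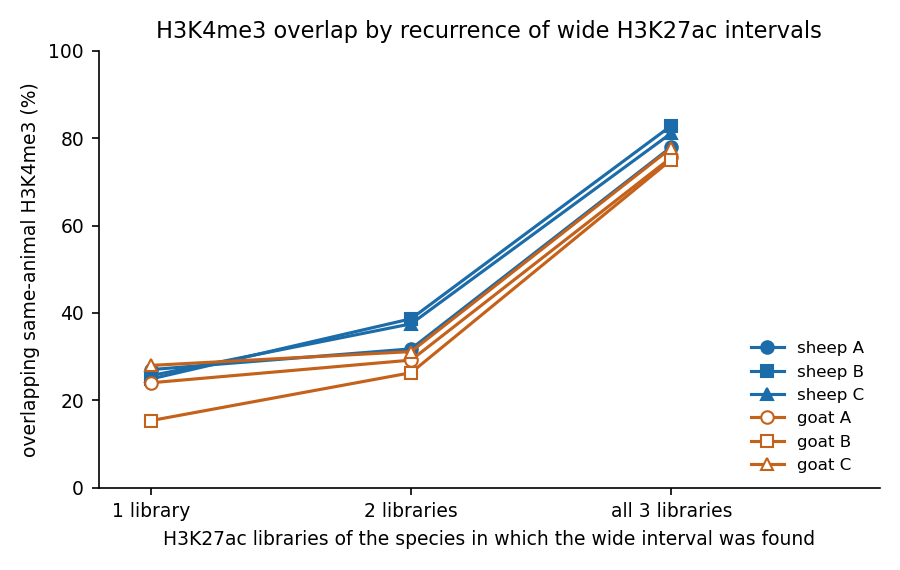
Percentage of wide H3K27ac intervals that overlap an H3K4me3 interval of the same liver, by the number of animals in which the H3K27ac interval was found, with 1 line per animal. Single-animal intervals sit between 15.4 and 28.0%, intervals of 2 animals between 26.3 and 38.7%, and common intervals between 75.1 and 82.9%.

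Width and strength differed between the classes, as given above. The overlap was therefore also read within bands of width and, separately, of fold enrichment. From 500 to just under 600 bp, 13.0 to 24.2% of the single-animal intervals overlapped H3K4me3 of the same liver, against 54.3 to 70.4% of the common ones. In the lowest 25% by fold enrichment the shares were 12.4 to 28.6% and 46.8 to 59.5%, so the classes did not overlap in either band. In the class just below the highest 25%, which held 290 single-animal intervals, 27.3 to 73.7% of them overlapped H3K4me3, more than in either weaker class of each animal, against 82.8 to 92.5% of the common intervals. The highest 25% held only 31 single-animal intervals, of which 33.3 to 100% per animal overlapped H3K4me3, the lowest being goat A with 3 such intervals and goat C having none. The order was not the same throughout, since the lowest class exceeded the next in sheep A (25 against 23.5%) and goat C (28.6 against 22.4%).

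The next comparison asked how near to a promoter mark the remaining intervals lay. A total of 2431 single-animal intervals had no overlap with H3K4me3 of the same liver, and 368 of them had such an interval within 5 kb, edge to edge. In sheep A, B and C these were 15.5, 17.6 and 15.8% of the single-animal intervals without overlap, against 17.3, 23.4 and 23.3% of the common ones. In goats A, B and C they were 12.2, 14.9 and 14.1%, against 15.2, 22.2 and 22.2%. The difference was −5.57 ± 2.62 percentage points (SD, n = 6), negative in 6 of 6 animals, from −8.08 to −1.82 (exact sign-flip permutation test, p = 0.03125, adjusted p = 0.0375). This call rests on its settings. With the width set to at least 750 bp the difference was −5.31 (exact sign-flip permutation test, p = 0.219). With intervals within 500 bp joined in the lists of both marks it was −1.51 (exact sign-flip permutation test, p = 0.156).

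In proportion, the classes differed most close to the promoter mark. Within 0.5 kb of H3K4me3 lay 5.21% ± 0.996 of the single-animal intervals without overlap and 10.2% ± 2.27 of the common ones (SD, n = 6). Within 20 kb the shares were 49.1% ± 4.55 and 54.5% ± 4.08, and within 100 kb they were 87.2% ± 2.54 and 88.8% ± 2.09.

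The median distance to H3K4me3 was 19.5, 16.1 and 19.6 kb for the single-animal intervals of sheep A, B and C, against 19.7, 15.4 and 14.8 kb for the common ones. In goats A, B and C it was 25.8, 24.3 and 23.7 kb, against 21.3, 16.3 and 16.4 kb. Sheep A was the exception, with nearly the same median in both classes. The difference in the median log10 distance was 0.09 ± 0.07 (SD, n = 6), positive in 5 of 6 animals, and did not pass the threshold (exact sign-flip permutation test, p = 0.0625, adjusted p = 0.0625). Intervals of 2 animals had medians of 21.2, 17.04 and 17.9 kb in sheep A, B and C and of 30.0, 20.4 and 17.4 kb in goats A, B and C, farther from H3K4me3 than the single-animal intervals in sheep A, sheep B and goat A. Their share within 5 kb was also below that of the single-animal intervals in sheep A (15.3 against 15.5%) and goat A (10.8 against 12.2%). Other settings took the difference to either side of the threshold. By the exact test it was 0.05 with p = 0.0938 at a stricter q-value of 1e-05, 0.05 with p = 0.0938 after joining intervals within 500 bp, 0.13 with p = 0.03125 among intervals under 600 bp, and 0.19 with p = 0.03125 for single-animal intervals at least 5 kb from those of other animals, a choice that itself removes intervals near common ones.

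**Figure D4:**
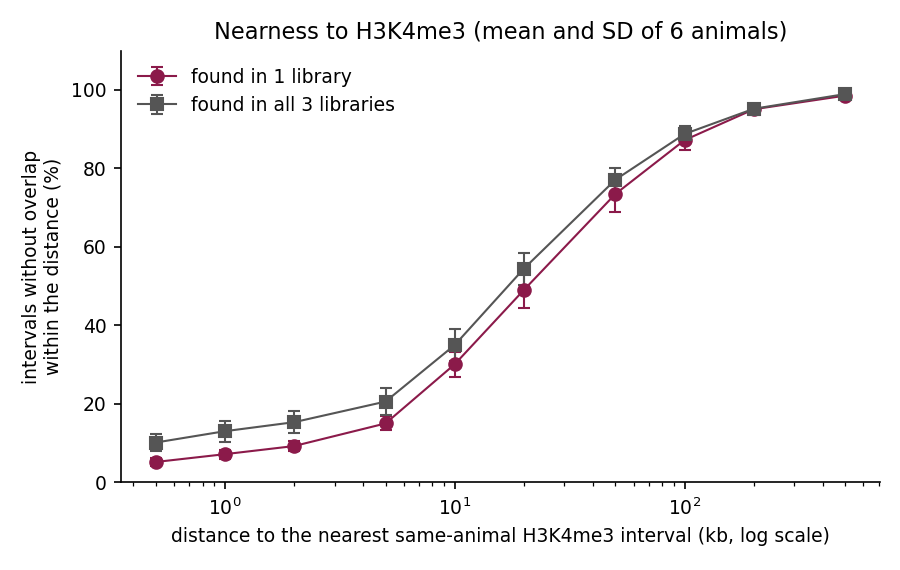
Cumulative percentage of wide H3K27ac intervals without H3K4me3 overlap against the distance in kb (log axis) to the nearest H3K4me3 interval of the same liver, as the mean over 6 animals with the SD. The curve of the single-animal intervals runs below that of the common ones at short distances (5.21 against 10.2% within 0.5 kb) and comes close to it from 100 kb on (87.2 against 88.8%).

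Another comparison asked whether the promoter mark at a single-animal interval was found in its own animal more than in the others. The H3K4me3 lists of sheep A, B and C overlapped 27.05, 24.4 and 27.6% of the single-animal intervals of sheep A. They overlapped 14.8, 24.9 and 20.6% of those of sheep B, and 17.9, 21.3 and 25.7% of those of sheep C. The animal's own list gave the highest share in sheep B and C and not in sheep A.

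The H3K4me3 lists of goats A, B and C overlapped 24.0, 21.7 and 23.6% of the single-animal intervals of goat A. They overlapped 8.20, 15.4 and 11.7% of those of goat B, and 14.7, 18.0 and 28.0% of those of goat C. Here the animal's own list gave the highest share in each of the 3 goats, by a narrow margin in goat A.

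The own list exceeded the mean of the other 2 lists by 1.04, 7.20 and 6.08 percentage points in sheep A, B and C and by 1.36, 5.42 and 11.6 in goats A, B and C. The mean was 5.45 ± 3.94 (SD, n = 6), above 0 in 6 of 6 animals. Permuting the animal letters of the H3K4me3 lists within species gave p = 0.0278, the smallest of 36 arrangements, in an exact two-sided test (adjusted p = 0.0375). With intervals of at least 300 bp the mean was 2.58, and with those of at least 750 bp it was 15.2, so its size depends on the width chosen. The value fell below 0 in sheep A and goat A at 300 bp (−0.67 and −1.44), at a q-value of 1e-05 (−1.39 and −3.44) and with 50% coverage as the rule for being found (−1.68 and −4.14), which left 4 of 6 animals above 0.

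At the common intervals the same quantity was −2.70, 1.59 and 1.54 in sheep A, B and C and −3.72, 2.43 and 2.24 in goats A, B and C. The excess at the single-animal intervals over that at the common ones was 5.22 ± 2.24 percentage points (SD, n = 6), from 2.99 to 9.38, in 6 of 6 animals (exact sign-flip permutation test, p = 0.03125, adjusted p = 0.0375). At intervals of 2 animals the own-minus-other value was −2.88, 5 and 4.92 in the sheep and −2.89, 4.39 and 6.10 in the goats, below the single-animal value of each animal but above the common one in each animal other than sheep A. When an interval counted as found only if an interval of another animal covered at least 50% of it, the excess was 2.97 and did not pass (exact p = 0.0938). The A animals of both species, which had the smallest own-minus-other values in both classes, also had the H3K4me3 lists that covered least, at 21.7 Mb in sheep and 20.1 Mb in goats, against 23.4 to 25.2 Mb in the other 4. The part of list length in these values was not tested.

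**Figure D5:**
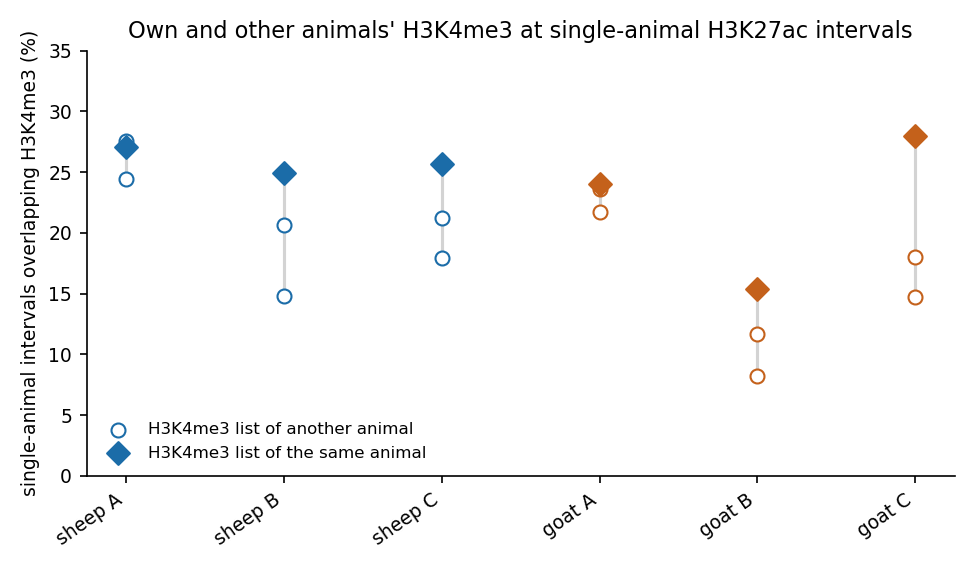
Percentage of the single-animal H3K27ac intervals of each animal that overlap the H3K4me3 list of the same animal (diamonds) and each list of the other 2 animals of the species (circles). The own list is the highest in 5 of the 6 animals, and in sheep A the list of another sheep is ahead, at 27.6 against 27.05%.

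Of the 3197 single-animal intervals, 2313 (72.3%) overlapped no H3K4me3 interval in any animal of the species, and 460 (14.4%) overlapped one in all 3 animals. The latter were places where the promoter mark was shared although the wide acetylated interval was not. H3K4me3 of the own animal alone was present at 170 (5.32%), that of the own and 1 other animal at 136 (4.25%), and that of other animals alone at 118 (3.69%). Among the 104787 common intervals, 18.6% had none, 74.7% had H3K4me3 in all 3 animals, 1.203% had it in the own animal alone, 2.32% in the own and 1 other, and 3.18% in other animals alone. H3K4me3 in the own animal alone was found at 26, 18 and 46 single-animal intervals in sheep A, B and C, against a mean of 17, 5 and 13 for H3K4me3 in just 1 of the other animals. In goats A, B and C the numbers were 3, 31 and 46, against 4, 6 and 3.5, so that goat A alone was without an excess. At common intervals the own animal alone also exceeded 1 other in sheep B (221 against 112), sheep C (245 against 140.5), goat B (371 against 194.5) and goat C (327 against 187.5), and was below it in sheep A (58 against 227.5) and goat A (39 against 278).

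Some of the H3K4me3 intervals under single-animal H3K27ac intervals were themselves absent from both other animals. Among the single-animal intervals with H3K4me3 of the same liver, those whose H3K4me3 overlapped none of the other animals numbered 25 of 208 in sheep A (12%), 16 of 64 in sheep B (25%) and 44 of 192 in sheep C (22.9%). They numbered 4 of 62 in goat A (6.45%), 31 of 105 in goat B (29.5%) and 41 of 135 in goat C (30.4%). At common intervals the shares were 0.514, 1.73 and 1.80% in sheep A, B and C and 0.268, 2.37 and 2.13% in goats A, B and C. In each animal the single-animal intervals stood above every value of the common ones. Intervals of 2 animals did so too, with 3.44, 8.81 and 10.96% in sheep A, B and C and 3.73, 14.2 and 13.4% in goats A, B and C, each below the single-animal value of the same animal.

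The difference was 19.6 ± 8.87 percentage points (SD, n = 6), from 6.18 to 28.2, in 6 of 6 animals (exact sign-flip permutation test, p = 0.03125, adjusted p = 0.0375). With 50% coverage as the rule for being found, it was 8.97. At a width of at least 750 bp it was 29.1 and did not pass (exact p = 0.0625). The H3K4me3 intervals under the single-animal intervals were also weaker and narrower, with median fold enrichments of 5.42 to 6.18 against 8.69 to 9.32 and median widths of 559 to 713 bp against 1093 to 1190 bp. Their part in the difference was not tested.

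Positions within a list come from the lists that chose the intervals, so clustering is given as a description. The nearest other H3K27ac interval of the same animal lay at a median of 10.3, 8.70 and 7.81 kb from the single-animal intervals in sheep A, B and C, and at 9.85, 7.23 and 7.02 kb in goats A, B and C. For the common intervals it lay at 6.68, 6.41 and 6.42 kb in the sheep and at 5.83, 0.891 and 4.77 kb in the goats. The median was thus larger for the single-animal than for the common intervals in each animal. For intervals of 2 animals it was 8.19, 8.28 and 6.02 kb in the sheep and 9.73, 3.75 and 4.67 kb in the goats, close to the single-animal value in sheep B and goat A. No other H3K27ac interval of the animal came within 50 kb of 9.37 to 14.3% of them, against 5.76 to 9.75% of the common intervals and 7.10 to 14.7% of those of 2 animals, which in goat A exceeded the single-animal share (14.7 against 13.6%).

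Most single-animal intervals had a neighbour of another class. The nearest wide neighbour was itself a single-animal interval for 6.63, 1.95 and 7.09% of them in sheep A, B and C and for 1.94, 4.25 and 4.56% in goats A, B and C, where they made up 4.13, 1.62 and 3.92% and 1.33, 2.99 and 2.33% of the wide intervals. In sheep B and goat A these neighbours numbered only 5 each, too few to read a difference from that share. From common intervals the nearest wide neighbour was a single-animal one in 3.61, 1.51 and 3.29% of cases in sheep and 1.11, 2.72 and 2.097% in goats, and from intervals of 2 animals in 5.46, 2.64 and 5.84% and 2.07, 4.31 and 3.09%. In sheep B, goat A and goat B the single-animal value did not exceed that of intervals of 2 animals. When single-animal intervals close to each other were linked into runs, the widest gap within a run of each animal measuring 0.878 to 12.2 kb, 22, 2 and 36 of them fell into runs in sheep A, B and C and 4, 14 and 8 in goats A, B and C, or 0.778 to 4.81% of those of an animal. Within the same linking distance of a single-animal interval of another animal lay 2.05 to 5.45% of them, and 1.71 to 3.38% of the common intervals.

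A single run had more than 2 intervals. It held 4 in sheep A over NC_040257.1:98319710-98334709, with fold enrichments of 1.79 to 2.27 and no H3K4me3 of any of the 3 sheep. That sequence had the highest share of single-animal intervals over the 3 sheep together (90 of 1718 wide intervals, 5.24%), with 7.44% in sheep A, 2.71% in sheep B and 4.99% in sheep C, each above the share over all autosomes of that animal. In goats, NC_030816.1 had the highest share of the 29 autosomes in each of the 3 animals, at 2.55, 4.39 and 4.03% in goats A, B and C. The largest run of goat C was a pair over NC_030808.1:149345137-149346681, under 1 H3K4me3 interval of 1701 bp with a fold enrichment of 7.56 that neither other goat had. In sheep B the largest was a pair over NC_040252.1:53402955-53405296, with single-animal H3K4me3 of fold enrichment 11.3 at the right-hand interval.

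The extremes of the set are given next, and are not typical of it. They were named by rule, per animal the widest, the one of highest fold enrichment, and the one of highest fold enrichment over single-animal H3K4me3. Which genes lie there, and the sequence of these regions, were not analysed here.

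The highest fold enrichment of all was 12.1, in sheep A at NC_040252.1:169244591-169245290. H3K4me3 of the same liver overlapped it with a fold enrichment of 15.2, and the nearest H3K27ac interval of another sheep was 114796 bp away. In sheep B the highest was 8.73, at NC_040270.1:6199490-6200094, over an H3K4me3 interval of 596 bp that was also absent from the other sheep. In sheep C it was 11.2, at NC_040267.1:77413749-77414428, with no H3K4me3 of that liver within 14973 bp. The strongest intervals of sheep A and sheep B thus overlapped the promoter mark and that of sheep C did not.

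In goat A the highest fold enrichment was 8.14, at NC_030811.1:52429399-52430013, and the nearest H3K4me3 interval of the same liver was 51765 bp away. In goat B it was 7.99, at NC_030812.1:106995821-106996486, over H3K4me3 of fold enrichment 10.4. In goat C it was 6.99, at NC_030808.1:150405378-150405879, with the nearest H3K4me3 interval 27516 bp away. H3K4me3 of the same liver was therefore absent at the strongest interval of 2 of the 3 goats and of 1 of the 3 sheep, although another goat had H3K4me3 at that of goat A.

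For each animal the strongest interval over single-animal H3K4me3 was taken by H3K27ac fold enrichment alone, whatever the strength of H3K4me3. The one of sheep B is given above. In sheep A the interval was NC_040252.1:134457609-134458502, with fold enrichments of 6.77 for H3K27ac and 4.41 for H3K4me3. In sheep C it was NC_040257.1:93938294-93938958, with 8.12 and 4.82. In goat A it was NC_030811.1:69251414-69251957, with 5.33 and 3.99, which lay only 237 bp from an H3K27ac interval of another goat.

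In goat B both marks met at NC_030823.1:28649897-28650417, with fold enrichments of 5.46 for H3K27ac and 12.6 for H3K4me3. In goat C they met at NC_030812.1:110963484-110963992, with 6.63 and 9.75. H3K4me3 was the stronger of the marks by fold enrichment in these 2 goats, while H3K27ac was the stronger in the sheep and in goat A. Fold enrichments of the marks come from separate lists and separate backgrounds, so this order is a description.

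The widest single-animal interval of sheep A measured 1498 bp, at NC_040252.1:3631352-3632849, and had no H3K4me3 of the same liver within 24035 bp. Those of sheep B, sheep C, goat A and goat C overlapped H3K4me3 of their own liver, with fold enrichments of 6.43, 4.53, 7.04 and 6.26, and H3K4me3 of at least 1 other animal of the species lay there too. Those of sheep B and sheep C lay 584 and 369 bp from an H3K27ac interval of another sheep. The widest of goat B, at NC_030811.1:17134885-17136059, had a fold enrichment of only 2.23 and lay 289 bp from H3K4me3 and 395 bp from an H3K27ac interval of another goat.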

How the data were processed

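Per the study's methods, frozen liver was crosslinked and sonicated, H3K27ac and H3K4me3 were precipitated (Abcam ab4729 and ab85850), and paired-end reads were trimmed, aligned and freed of duplicates. The submitters' processing notes name Trim Galore 0.4.0, BWA 0.7.17, Picard 2.25.0 and MACS2 2.1.1. Reads were subsampled and narrow peaks called at a q-value of 0.01. Whether the 9 input samples, which have no list here, served as background is not given in the sources used here. A higher threshold or a shallower library can shorten a list and so leave intervals of the other animals without a partner.

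The deposited lists hold, per summit, a position, a fold enrichment (a ratio to background), a p-value and a q-value (both as −log10), all from the authors' peak caller. Rows that share an interval were joined into 1 with the highest values of its summits. Coordinates are 1-based. The methods describe 1 subsampled depth for paired-end libraries. The lists carry no read number, so it was not checked, and precision rests on 6 animals.

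Groups follow species, mark and animal letter in the sample titles. A letter marks 1 liver within a species and pairs its marks, not animals of different species. The own H3K4me3 list gave the highest share at single-animal intervals in 5 of 6 animals, which is part of a tested result and no independent check of the letters. Any overlap of 1 bp counted as found. Tests were exact and two-sided, with 64 sign arrangements of within-animal differences, or 36 arrangements of H3K4me3 letters within species, a threshold of 0.05 and Benjamini-Hochberg adjustment over 6 tests. The overlap was also compared between species by permuting 3 animals against 3, outside this adjustment. Shares have exact Clopper-Pearson 95% intervals. The sign-flip tests treat the 6 animals as independent, although the classes of each animal were set by the lists of the other 2 of its species. Each animal has 1 library per mark, so differences between animals and between libraries cannot be told apart. The intervals, the classes and the rule for named regions (widest, strongest, strongest over single-animal H3K4me3 and largest run per list, ties to the higher −log10 q) were chosen with earlier results of these data known. The overlap code was tested on simulated data and against bedtools. Python 3.11.15, numpy 2.4.6, pandas 2.3.3, scipy 1.17.1 and matplotlib 3.10.9 were used. Alternatives were a q-value of 1e-05, other widths, lower fold enrichment only, other overlap and distance rules, all sequences, and leaving out each animal. Fold enrichment was not matched between the classes. The only assembly table at hand was of another sheep build, so genes and sequences were not analysed here.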

Additional observations from a re-analysis of the deposited data

How the results depend on the processing

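The mean over animals of each of the 6 tested differences kept its direction under every alternative run. Single animals did not always do so. Own minus other animals was below 0 in sheep A and goat A at a q-value of 1e-05, at 300 bp and with 50% coverage, and in sheep A in the lower 50% by fold enrichment. The share within 5 kb was above the common one in sheep B and C at 750 bp and in sheep A with intervals joined. The median distance was below the common one in sheep B at 750 bp, in goat A at a q-value of 1e-05 and in sheep A with intervals joined. It was also below in sheep B when the classes were kept and intervals then limited to a q-value of 1e-05. The own-animal excess with 50% coverage and single-animal H3K4me3 at 750 bp turned in goat A. The number of single-animal intervals depended most on the choices. It was 5021 when lists were first limited to a q-value of 1e-05, 19378 at a width of at least 300 bp, 331 at 750 bp, 1902 with widths under 600 bp, 9787 when 50% coverage was needed to count as found, 1803 at 5 kb or more from other animals, and 1566 when the classes were kept and intervals then limited to a q-value of 1e-05, an alternative chosen after seeing the data. The share overlapping H3K4me3 ran from −56.1 to −39.3 percentage points. The difference in log10 distance to H3K4me3 passed its threshold (exact p = 0.03125) at 0.0852 for at least 300 bp, 0.132 for widths under 600 bp, 0.112 in the lower 50% by fold enrichment, 0.0962 with 50% coverage, 0.134 from summits, 0.187 at 5 kb or more from other animals and 0.0935 on all sequences. It did not pass at a q-value of 1e-05 (0.0482, exact p = 0.0938), with intervals joined over 500 bp (0.0533, exact p = 0.0938) at 750 bp (0.125, exact p = 0.375) or with the classes kept and a q-value of 1e-05 (0.0760, exact p = 0.0625). The share within 5 kb lost its call at 750 bp (−5.31) and with intervals joined over 500 bp (−1.51), and was −9.43 from summits and −16.4 at 5 kb or more from other animals. The last choice itself removes single-animal intervals near those of other animals and leaves the common ones unfiltered. Single-animal H3K4me3 lost it at 750 bp (29.1, with as few as 0 such intervals in goat A). The own-animal excess over common intervals lost it with 50% coverage (2.97), and was 3.45 at a q-value of 1e-05, 2.49 at 300 bp and 14.9 at 750 bp. Single-animal H3K4me3 was 12.7 at a q-value of 1e-05 and 8.97 with 50% coverage, and own minus other animals was 3.601, 2.58, 15.2 and 3.03 at a q-value of 1e-05, at 300 bp, at 750 bp and with 50% coverage. The cause was not tested. Without the pairing of the classes by animal (no replicate block, classes permuted within species), the difference in distance was 0.0921 and passed (exact p = 0.035). The marks of an animal stayed paired. The calls of the other 4 differences tested this way were unchanged, own minus other animals at single-animal intervals not being run. Leaving out each animal gives 32 or 12 arrangements, too few to reach 0.05 by construction. The classes and single-animal H3K4me3 were still defined with all 3 animals of a species, the one left out included. The values then ran from −55.2 to −53.2 for overlap, −6.32 to −5.07 for nearness, 0.0757 to 0.111 for distance, 4.76 to 6.22 for own minus other animals, 4.53 to 6.02 for its excess over common intervals and 17.8 to 22.3 for single-animal H3K4me3. The depth behind a list was not checked, which limits every absence stated here.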
